A study of Homo sapiens with 18 samples.

Results

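HOX genes encode homeodomain transcription factors that lie in 4 clusters, HOXA to HOXD, and are numbered by paralogue group from the end of each cluster that acts earliest and most anteriorly in the embryo. Their RNA levels were read in the cell line HCT-116, which derives from a human colorectal carcinoma and was kept in serum-supplemented DMEM. The members were all rows whose symbol is HOX followed by a cluster letter and a paralogue number, and they numbered 39 of the 60683 gene rows in each of the deposited tables: 11 in HOXA, 10 in HOXB, 9 in HOXC and 9 in HOXD. Low paralogue numbers pattern the hindbrain and neck, middle numbers the trunk, and high numbers the lumbar, sacral and hindgut levels. Adult gut epithelium and colorectal tumours keep a part of this code, and HOX proteins bind DNA together with other homeodomain partners. Polycomb complexes keep silent HOX genes off, MLL complexes keep active ones on, and retinoic acid and the CDX factors are known upstream inputs.

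Poly(A) RNA was sequenced from 18 libraries in 6 groups of 3. In the ACTB table, cells labelled Actin KO stably carried a mutant beta-actin construct with the histidine-to-alanine change of the H73A form (ACTB-mut), a wild-type beta-actin construct (ACTB-WT) or an empty construct (Actin KO), and the first 2 are labelled as over-expressing. In the SETD3 table, a pair of knockout lines, SETD3 KO2 and SETD3 KO1, stood beside a control, SETD3 CT. SETD3 is the methyltransferase that modifies the actin histidine missing in H73A. The labels do not say how the knockouts were made, whether a line is 1 clone, or whether replicates are cultures grown apart, and p-values therefore measure the spread between these libraries. SETD3 KO2 replicate 3 carries the cell line label HCT-117 and the other libraries HCT-116.

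Libraries held between 3389586 and 11652967 counts, and 1 CPM (counts per 1000000 counts of the library) was worth 3.15 to 12.1 counts. ACTB RNA was 31.9 to 46.9 CPM in ACTB-mut, 23.1 to 30.9 CPM in ACTB-WT and 14.9 to 24.9 CPM in Actin KO libraries, against 660.5 to 1452 CPM across the SETD3 table. The ACTB-WT and Actin KO ranges overlap, so ACTB RNA does not fully separate those groups. SETD3 RNA was 15.6 to 27.6 CPM in KO2 and 6.33 to 17.1 CPM in KO1, against 13.9 to 35.9 CPM in CT, so the RNA level does not separate the knockout libraries from the controls and groups are named by their labels. Of 11 colorectal epithelium markers, 9 had a count in the ACTB libraries and 8 in the SETD3 libraries, with summed levels of 7925 to 13380 CPM per library carried by KRT18, KRT8 and KRT19, and with CDX1 at 0. Of 6 neural markers 4 had a count in each table, with sums of 60.3 to 145.6 CPM per library, mostly TUBB3, and with SNAP25 and SOX10 at 0. Of 7 liver or kidney markers 5 had a count in each table (11.2 to 45.5 CPM, mostly PAX2 and PAX8), with ALB and AFP at 0. Of 9 fibroblast markers 5 had a count in the ACTB libraries and 4 in the SETD3 libraries (2.49 to 19.7 CPM), with COL3A1, LUM and POSTN at 0, and of 7 blood markers 4 and 2 did (0 to 1.66 CPM), with PTPRC and CD3E among those at 0. No marker was called by edgeR; DESeq2 called KRT18, which averaged 4575 CPM in ACTB-mut, 6059 CPM in ACTB-WT and 4536 CPM in Actin KO, in both comparisons with ACTB-WT.

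Some sequences in the clusters bear on the members described below. The miR-196 and miR-10 genes lie inside the HOX clusters, and miR-196 is known to direct cleavage of HOXB8 mRNA through a nearly complete match. MIR196A1 lies inside the long HOXB7 gene model at chr17:48632532-48632553, MIR196B inside HOXA9, and MIR10A inside HOXB4 at chr17:48579904-48579926, all on the minus strand (GRCh38, RefSeq). The mature forms are shown with the seed, bases 2 to 8, in capitals. In the HOXB8 site, from the 3' untranslated region at chr17:48612770-48612791 on the minus strand, the capitals are the bases opposite the miR-196a seed.
miR-196a-5p: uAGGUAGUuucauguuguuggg
miR-196b-5p: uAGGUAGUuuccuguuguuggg
miR-10a-5p: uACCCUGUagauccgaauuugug
HOXB8 site: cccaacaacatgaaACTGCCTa
The site forms 21 Watson-Crick pairs and 1 G:U pair over the 22 bases of miR-196a-5p. An uninterrupted seed match, ACTACCT, is present in the 3' untranslated region of 9 of 39 HOX genes (23.1%), against 1369 of 19120 genes (7.16%), each gene taken by its GENCODE 29 transcript with the longest such region. HOXA7 holds 4 such matches, HOXA9 and HOXC8 hold 2 each, and HOXA5, HOXB1, HOXB6, HOXB7 and HOXB13 are among those that hold 1. The miR-10 match, ACAGGGT, is present in 7.69% of HOX genes, HOXA3 and HOXB3 among them, against 12.8% of all genes. Poly(A) libraries do not capture mature miRNAs, so their levels were not measured.

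HOXA3, which is called below, has 7 transcription starts in RefSeq. The window before the start farthest upstream, chr7:27152584-27152833 on the minus strand (GRCh38.p14), is shown because it spells TTTATG, a core that CDX homeodomain proteins are known to bind, 3 times in its 250 bases counting both strands (CATAAA on the other strand), in capitals.
HOXA3 upstream window: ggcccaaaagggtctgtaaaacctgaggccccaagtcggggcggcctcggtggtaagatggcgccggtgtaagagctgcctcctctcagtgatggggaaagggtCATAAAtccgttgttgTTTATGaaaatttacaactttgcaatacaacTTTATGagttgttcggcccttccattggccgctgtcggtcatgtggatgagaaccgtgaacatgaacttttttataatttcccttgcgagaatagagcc
Among windows of 300 bases around starts, TTTATG occurs in 3 of the 27 windows of 20 HOX genes (11.1%), against 10.6% of 35116 windows of all genes, with matches counted on both strands whether or not they overlap another. The HOX windows have a median CpG observed-over-expected ratio of 0.849, against 0.579 for all windows, and CCAAT occurs in 66.7% of them, against 34.6%. These are descriptions of sequence, and which start was used was not measured.

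By summed CPM, most HOX RNA in HCT-116 came from HOXA and HOXB genes of middle and posterior number. HOXC9 was also among the genes of highest level. HOX reads made up 0.0325% to 0.0686% of all counts. A gene is called expressed here when its mean is at least 1 CPM in at least 1 group, and 26 of 39 members passed in the ACTB table. Members past this level numbered 23 in the SETD3 table, all of them among the 26. Summed HOXA levels were 140 to 245 CPM and HOXB levels 136 to 235 CPM per library in the ACTB table, against 21.6 to 51.4 CPM for HOXC and 0 to 6.93 CPM for HOXD. In the SETD3 table HOXA summed to 189 to 326 CPM, HOXB to 126 to 261 CPM, HOXC to 11.7 to 47.4 CPM and HOXD to 0 to 8.19 CPM.

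**Figure D1:**
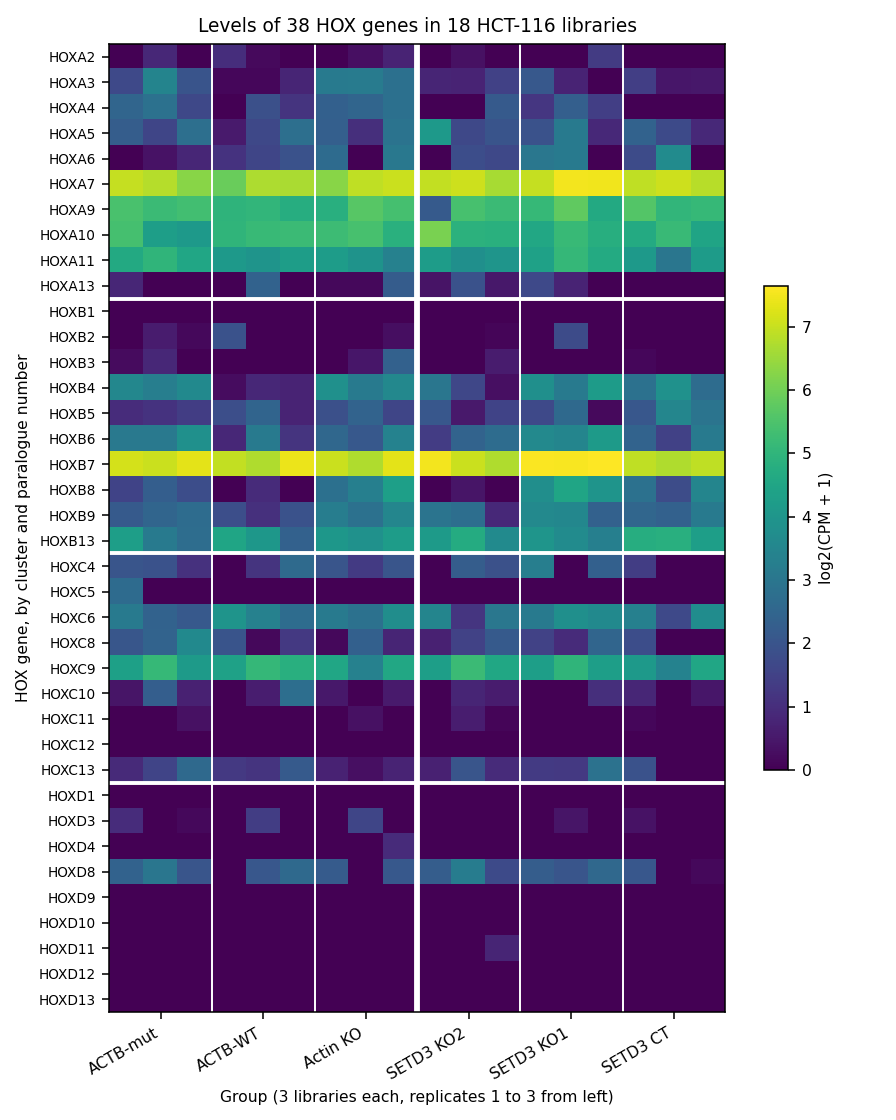
HOX gene levels as log2(CPM + 1), with 38 genes in rows by cluster and paralogue number and the 18 libraries in columns by group, 3 libraries each. HOXB7 and HOXA7 form the brightest rows, HOXA9 to HOXA11, HOXB13 and HOXC9 follow, and in HOXD only HOXD8 reaches 1 CPM in a group mean.

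Levels were compared between genes per kilobase of exon. HOXB7 stood first in both tables, with a mean of 89.0 CPM per kb over the ACTB libraries and 97.6 CPM per kb over the SETD3 libraries. HOXA7, the only other member of paralogue group 7, was second with 41.5 and 55.5 CPM per kb in those tables. Both are trunk-level HOX factors, and together they gave 51.7% to 63.6% of HOX CPM in ACTB libraries and 56.5% to 65.4% in SETD3 libraries. HOXC9 (13.6 and 12.7 CPM per kb), HOXA9 (11.9 and 11.2), HOXA10 (8.53 and 8.72) and HOXA11 (8.07 and 7.85) came next in the ACTB and SETD3 tables. HOXB13, a prostate and hindgut HOX factor, had 3.84 and 5.17 CPM per kb. HOXA7 shares 62.5% of its exon bases with HOXA-AS3 on the other strand, and the strand setting of the counting is not given in the sources used here. HOXA-AS3 averaged 0.199 to 3.87 CPM over the 6 groups, and its part in the HOXA7 count was not tested. HOXA9 and HOXA10 share 13.9% and 16.4% of their exon bases with HOXA10-AS on the other strand. HOXA11 shares 31.1% with HOXA11-AS. HOXA10-AS was the most abundant of the listed noncoding transcripts, and the part of these transcripts in the HOXA9, HOXA10 and HOXA11 counts was not tested.

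Paralogue groups 9, 10, 11 and 13 were expressed from some clusters and not others. Every member of groups 6, 7 and 8 was expressed in both tables. Group 8 averaged 4.77 CPM for HOXB8, 3.13 CPM for HOXC8 and 3.29 CPM for HOXD8 over the ACTB libraries. In group 9, HOXA9 and HOXC9 averaged 35.9 and 22.8 CPM over the ACTB libraries, HOXB9 averaged 5.02 CPM, and HOXD9 had no count. Group 10 was carried by HOXA10 (31.6 CPM), with HOXC10 at 1.33 CPM and HOXD10 without a count. Group 11 was carried by HOXA11 (18.6 CPM), with HOXC11 and HOXD11 under 1 CPM in every library. Group 12 was not detected, with no count for HOXC12 or HOXD12 in either table. Group 13 was carried by HOXB13 (13.3 CPM), ahead of HOXC13 (1.73 CPM) and HOXA13 (0.997 CPM) and with HOXD13 without a count. At the anterior end, HOXA2, HOXB1, HOXB2, HOXB3, HOXD1 and HOXD3 averaged under 1 CPM over each table. HOXA4, HOXA5, HOXA6, HOXB4, HOXB5, HOXB6, HOXC4 and HOXC6 lay between, at 2.21 to 7.88 CPM over the ACTB libraries.

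No count was seen in either table for 7 members: HOXB1, HOXC12, HOXD1, HOXD9, HOXD10, HOXD12 and HOXD13. Such a 0 allows up to 0.0416 CPM over the 9 ACTB libraries and 0.0422 CPM over the 9 SETD3 libraries, at 3 counts, which covers counting error only. HOXD11 also had none in the ACTB table, and HOXC5 and HOXD4 had none in the SETD3 table. HOXD8 was the only HOXD gene expressed, at 4.76 ± 1.98 CPM in ACTB-mut, 2.80 ± 2.62 CPM in ACTB-WT and 2.30 ± 2.00 CPM in Actin KO (SD, n = 3 each). HOXC5 owed its place among the expressed genes to 1 library: ACTB-mut replicate 1 held 62 counts, 5.41 CPM, and the other 17 libraries held none. It shares 59.9% of its exon bases with other genes on its strand. HOXC5, HOXB3 and HOXC10 were the 3 members past 1 CPM in the ACTB table alone.

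The first comparison sets the group labelled as carrying wild-type beta-actin against Actin KO. HOXB4, HOXB8 and HOXA3 were lower in ACTB-WT libraries than in Actin KO libraries, and no HOX gene was higher. In the same test 1.09% of all 13882 genes were called at an adjusted p below 0.05 and 0.663% were called lower, against 3 of the 21 HOX genes tested. The other 18 members held too few counts for testing in either table. A gene that entered only through the group where it is high had to differ, so these counts describe the members and stand as no test of the family. The median log2 fold change of the 21 was -0.24, against -0.01 over all genes.

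HOXB4, a regulator of blood stem cell growth, had 0.198, 0.804 and 0.695 CPM in the ACTB-WT libraries, against 13.4, 7.84 and 10.8 CPM in the Actin KO libraries. The ACTB-WT libraries were all under 1 CPM and no library of the groups overlapped. The log2 fold change was -4.16 (SE 0.63, adjusted p = 0.00268), and it was called under every alternative run. HOXB4 shares 17.1% of its exon bases on its own strand with AC103702.1, HOXB3 and MIR10A. AC103702.1, named after its values were seen, averaged 1.83 CPM in ACTB-WT and 1.86 CPM in Actin KO. In these RNA samples, fewer cells expressing a gene and less RNA per cell cannot be told apart.

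HOXB8, a trunk HOX factor that also holds back myeloid maturation, had 0, 0.938 and 0 CPM in the ACTB-WT libraries, against 6.08, 8.81 and 18.8 CPM in the Actin KO libraries. It has no exon overlap with another gene. Its log2 fold change was -4.95 (SE 1.07, adjusted p = 0.036). HOXA3, which in mice patterns the thymus, parathyroid and neck, had 0.0952, 0.102 and 0.727 CPM in ACTB-WT, against 7.97, 7.99 and 6.13 CPM in Actin KO. All ACTB-WT libraries lay under all Actin KO libraries for both genes. The log2 fold change of HOXA3 was -4.66 (SE 1.05, adjusted p = 0.0437). HOXB8 was no longer called when any of Actin KO replicates 1, 2 and 3 or of ACTB-WT replicates 1 and 3 was left out (adjusted p = 0.0695, 0.084, 0.219, 0.106 and 0.0926), nor HOXA3 when any of Actin KO replicates 1, 2 and 3 or of ACTB-WT replicates 1 and 2 was (adjusted p = 0.134, 0.121, 0.0982, 0.124 and 0.16). HOXA3 shares 9.24% of its exon bases with genes on its strand and 15.4% with HOXA-AS2 and HOXA-AS3 on the other. HOXA-AS2 averaged 0.116 CPM in ACTB-WT and 1.36 CPM in Actin KO, and HOXA-AS3 averaged 0.199 and 0.702 CPM. Their part in the HOXA3 count was not tested.

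**Figure D2:**
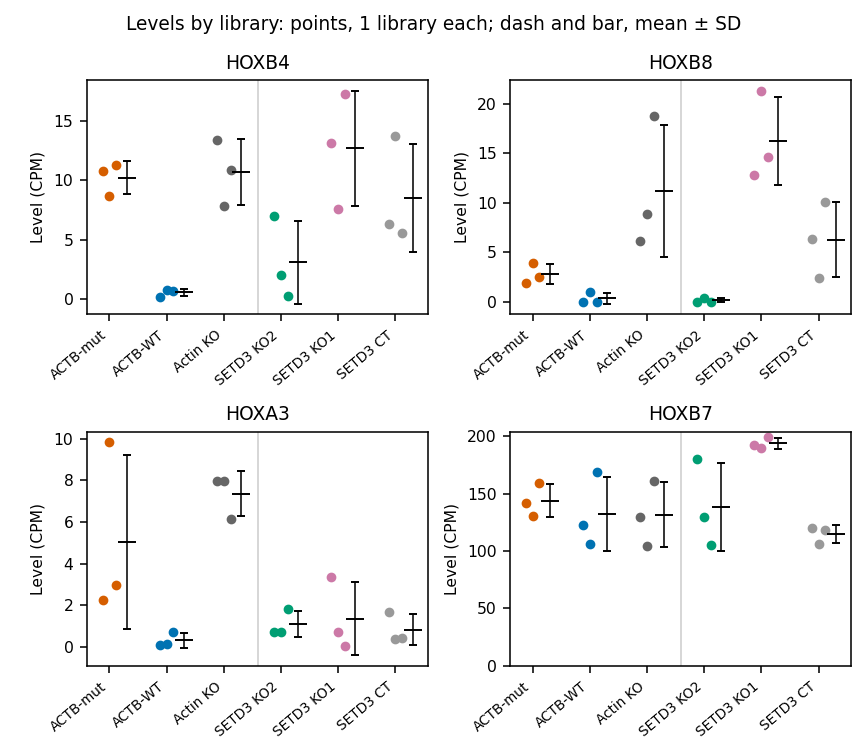
Levels in CPM of HOXB4, HOXB8, HOXA3 and HOXB7 in the 6 groups. Each point is 1 library, with the mean and SD of the group's 3 libraries beside it, and the grey line parts the ACTB table from the SETD3 table. HOXB4, HOXB8 and HOXA3 lie under 1 CPM in every ACTB-WT library, and HOXB8 is at or under 0.36 CPM in every SETD3 KO2 library.

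Of the neighbours in the clusters, HOXB5, HOXB7, HOXB9 and HOXA4 were tested and not called, and HOXB3 and HOXA2 held too few counts for testing. HOXB3, next to HOXB4, had no count in ACTB-WT, against 0, 0.367 and 4.21 CPM in Actin KO, at least 9.93-fold lower against a floor of 3 counts over the ACTB-WT group. Nearly all of its Actin KO counts came from replicate 3. HOXA2, next to HOXA3, averaged 0.375 CPM in ACTB-WT and 0.309 CPM in Actin KO. HOXB7, whose gene model spans HOXB8, averaged 132 ± 32.6 CPM in ACTB-WT and 132 ± 28.3 CPM in Actin KO (SD, n = 3 each). HOXB5 averaged 2.61 CPM in ACTB-WT and 3.03 CPM in Actin KO. HOXB9, a factor of rib patterning in mice, had 2.58, 1.07 and 2.78 CPM in ACTB-WT, against 8.46, 6.24 and 10.4 CPM in Actin KO, without overlap (log2 fold change -1.97, SE 0.66, adjusted p = 0.219). HOXA4, next to HOXA3, averaged 1.28 CPM in ACTB-WT and 4.92 CPM in Actin KO, also without overlap (log2 fold change -1.88, SE 1.00, adjusted p = 0.525). HOXA4 too shares exon bases with HOXA-AS2 and HOXA-AS3 on the other strand (16.3%), and their part in its count was not tested. HOXA9, a leukaemia-linked HOX factor, averaged 29.3 CPM in ACTB-WT and 39.2 CPM in Actin KO (log2 fold change -0.42, SE 0.25, adjusted p = 0.601). In all, 6 of the 21 tested HOX genes did not overlap between these groups, against 16.7% of all tested genes.

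ACTB-mut was set against the same Actin KO libraries. No HOX gene was called by edgeR, 0 of 21, against 0.922% of all genes. Of the 21, 3 had an unadjusted p below 0.05, against 11.5% of all genes. DESeq2 called 0, against 2.85%. It gave no adjusted p to HOXA11, HOXA6 or HOXB8 in this comparison, so it could not call them. HOXA11, a limb, kidney and uterus HOX factor, had 24.0, 31.0 and 21.9 CPM in ACTB-mut libraries, against 17.6, 14.3 and 9.22 CPM in Actin KO libraries. Its groups did not overlap (log2 fold change 0.90, SE 0.33, adjusted p = 0.277). HOXA6 averaged 0.353 CPM in ACTB-mut and 4.27 CPM in Actin KO, with Actin KO replicate 2 at 0 (log2 fold change -3.59, SE 1.57, adjusted p = 0.392). HOXB8 had 1.92, 3.88 and 2.53 CPM in ACTB-mut, under the 6.08 CPM of the lowest Actin KO library (log2 fold change -2.01, SE 0.89, adjusted p = 0.398). HOXB4 averaged 10.2 ± 1.37 CPM in ACTB-mut and 10.7 ± 2.76 CPM in Actin KO (SD, n = 3 each). Groups of 5 HOX genes did not overlap, against 18.5% of all genes, and the median log2 fold change was -0.06, against 0.03 over all genes.

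**Figure D3:**
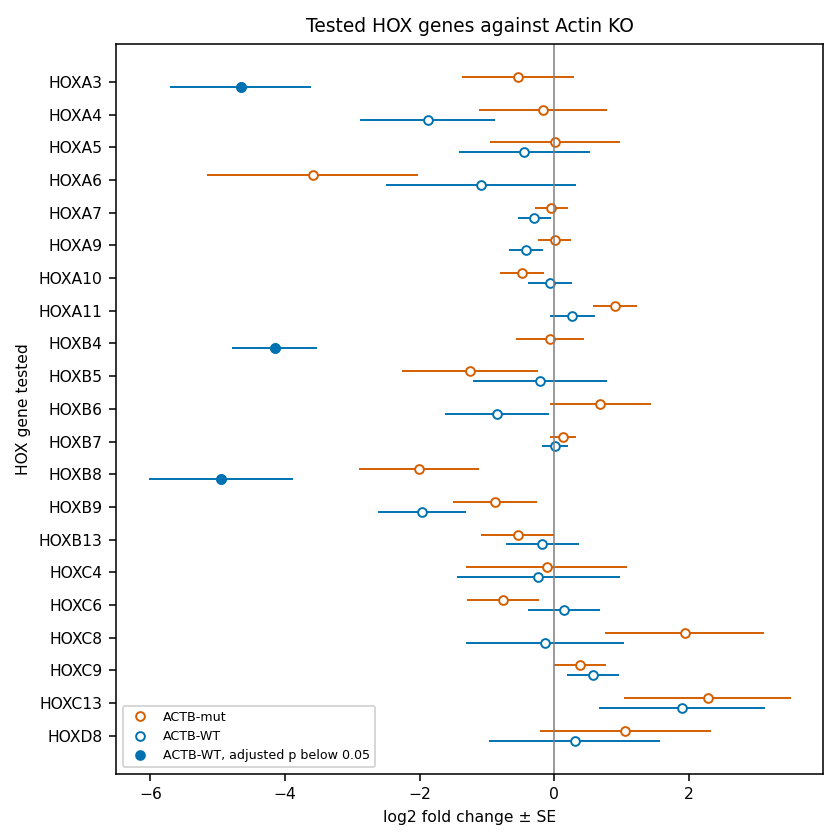
Log2 fold change and its SE for the 21 tested HOX genes in ACTB-mut and ACTB-WT, each against the same 3 Actin KO libraries. Filled points are called at an adjusted p below 0.05, and they are HOXA3, HOXB4 and HOXB8 in ACTB-WT.

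Setting ACTB-mut against ACTB-WT tests the difference between these groups directly. The actin form and the cells that carry each construct cannot be told apart in this design. HOXB4 was higher in ACTB-mut, with 10.7, 8.66 and 11.3 CPM, against 0.198, 0.804 and 0.695 CPM in ACTB-WT. Its log2 fold change was 4.09 (SE 0.63, adjusted p = 0.00394), called under every alternative run. It was the only HOX gene called of 21, against 1.24% of all genes called in either direction and 0.634% called higher. HOXA3 had 2.24, 9.83 and 2.98 CPM in ACTB-mut, against at most 0.727 CPM in ACTB-WT, and missed the threshold (log2 fold change 4.12, SE 1.03, adjusted p = 0.0737). It was called without a filter on low counts, with DESeq2 and without ACTB-WT replicate 3 (log2 fold change 5.77, adjusted p = 0.0486). HOXA-AS3, which overlaps HOXA3 exons on the other strand, averaged 3.87 CPM in ACTB-mut (2.42 to 5.44) and 0.199 CPM in ACTB-WT (0 to 0.596). HOXA-AS2 averaged 0.283 and 0.116 CPM in those groups. Their part in the HOXA3 count was not tested. HOXB8 averaged 2.78 CPM in ACTB-mut and 0.313 CPM in ACTB-WT (log2 fold change 2.94, SE 1.03, adjusted p = 0.233). HOXB6 averaged 9.52 CPM in ACTB-mut and 3.22 CPM in ACTB-WT and overlapped (log2 fold change 1.53, SE 0.77, adjusted p = 0.457). Groups of 8 of 21 HOX genes did not overlap, against 18.1% of all genes, with a median log2 fold change of 0.42, against 0.02 over all genes. The ACTB-WT and Actin KO libraries each enter a pair of these comparisons, so the comparisons are not independent.

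In the SETD3 table few genes of any kind were called. SETD3 KO1 against CT called 0.0144% of 13846 genes and no HOX gene of 21 by edgeR; 3 HOX genes had an unadjusted p below 0.05, against 5.75% of all genes, and DESeq2 called 0, against 0.52%. HOXB7, the most abundant HOX mRNA, had 192, 190 and 199 CPM in KO1, against 120, 106 and 118 CPM in CT. Every KO1 library lay above every CT library, and the adjusted p missed the threshold (log2 fold change 0.75, SE 0.22, adjusted p = 0.595). HOXA4 had 1.33, 3.98 and 1.66 CPM in KO1 and no count in CT, at least 18.7-fold higher against a floor of 3 counts over the CT group (adjusted p = 0.803). DESeq2 gave HOXA4 no adjusted p in this comparison, so it could not call the gene. HOXA4 shares 31% of its exon bases with AC004080.6 on its strand, which had no count in these groups. It shares 16.3% with HOXA-AS2 and HOXA-AS3 on the other strand. HOXA-AS2 averaged 3.82 CPM in KO1 and 0.649 CPM in CT, and HOXA-AS3 averaged 1.37 and 1.22 CPM. Their part in the HOXA4 count was not tested. HOXB13 had 14.9, 11.9 and 8.77 CPM in KO1, against 26.4, 27.4 and 18.5 CPM in CT (log2 fold change -1.02, SE 0.42, adjusted p = 0.826). Summed HOXB was 259 ± 1.7 CPM in KO1 and 171 ± 4.56 CPM in CT (SD, n = 3 each), mostly HOXB7. Of 21 HOX genes, 6 did not overlap, against 13.2% of all genes, and the median log2 fold change was 0.64, against -0.02 over all genes.

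HOXB8 was at or near 0 in SETD3 KO2. It had 0, 0.36 and 0 CPM in KO2, against 6.29, 2.43 and 10.1 CPM in CT. All KO2 libraries lay under all CT libraries, and the adjusted p missed the threshold in edgeR (log2 fold change -5.29, SE 1.06, adjusted p = 0.189). HOX calls against CT were 0 of 21, against 0.0578% of all genes; 2 HOX genes had an unadjusted p below 0.05, against 4.95% of all genes. DESeq2 called 1 HOX gene, HOXB8, at an adjusted p of 0.000261, against 0.65% of all genes. HOXA4 had 3.51 CPM in KO2 replicate 3, which carries the HCT-117 label, and no count in the other KO2 libraries or in CT, at least 12.2-fold higher over the groups (adjusted p = 0.889). HOXB4 had 6.98, 2.07 and 0.248 CPM in KO2, against 6.29, 13.7 and 5.54 CPM in CT (log2 fold change -1.54, SE 0.92, adjusted p = 1). In KO2 replicate 1, the library of lowest depth, HOXA9 was 3.49 CPM and HOXA10 was 67.9 CPM, against 41.4 and 36.4 CPM of HOXA9 and 29.4 and 27.8 CPM of HOXA10 in the other KO2 libraries. These genes share exon bases with AC004080.3 on their strand and with HOXA10-AS on the other. The part of read assignment in these values was not tested. Groups of 2 HOX genes did not overlap, against 10.2% of all genes, and the median log2 fold change was 0.15, against -0.01 over all genes.

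**Figure D4:**
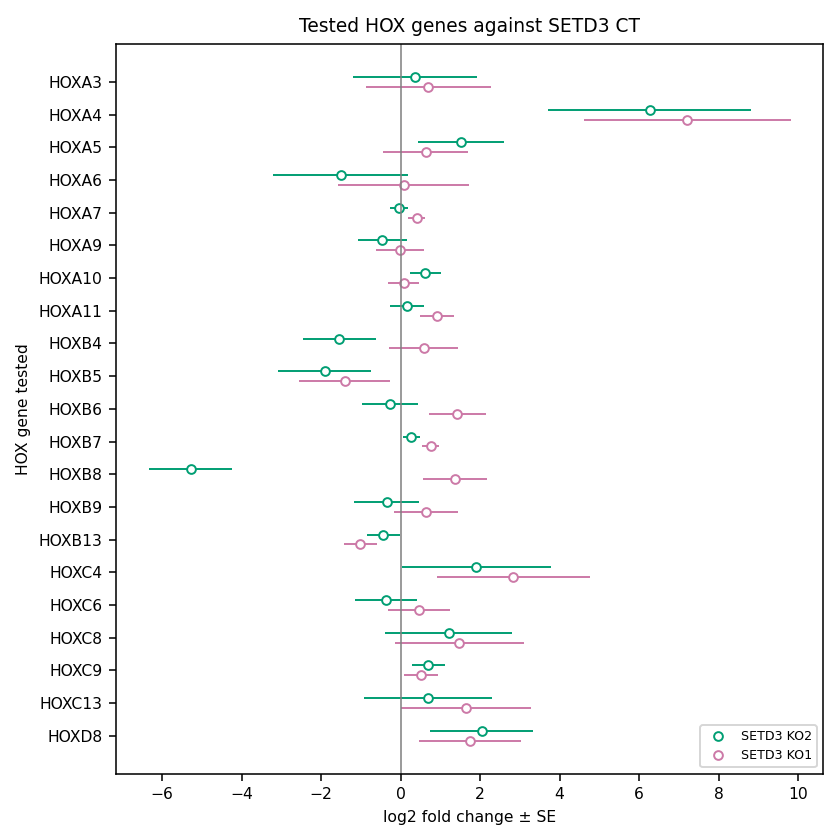
Log2 fold change and its SE for the 21 tested HOX genes in SETD3 KO2 and SETD3 KO1, each against the same 3 SETD3 CT libraries. No point is filled because none was called; the HOXA4 points rest on a CT group without a count and depend on the prior count of the fit. HOXB8 is at -5.29 in KO2 and 1.37 in KO1.

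The knockout lines were also compared with each other. HOXB8 had 0, 0.36 and 0 CPM in KO2, against 12.8, 21.3 and 14.7 CPM in KO1 (log2 fold change -6.65, SE 1.09, adjusted p = 0.0852). It was called without a filter on low counts, with DESeq2 and with offsets for GC content and length. HOXB6 averaged 3.84 CPM in KO2 and 12.7 CPM in KO1 (log2 fold change -1.69, SE 0.72, adjusted p = 0.999), and HOXB4 averaged 3.1 CPM in KO2 and 12.7 CPM in KO1 (log2 fold change -2.12, SE 0.93, adjusted p = 0.999), both without overlap. edgeR called 0 of 21 HOX genes, against 0.0289% of all genes; 4 had an unadjusted p below 0.05, against 4.84% of all genes, and DESeq2 called 1, against 0.404%. Groups of 5 HOX genes did not overlap, against 11.9% of all genes, and the median log2 fold change was -0.50, against 0.01 over all genes. For the mean of both knockouts against CT, edgeR called 0 HOX genes, against 0.0433% of all genes; 3 had an unadjusted p below 0.05, against 5.68% of all genes, and DESeq2 called 0, against 0.657%. Of the HOX genes, 0 had groups free of overlap, against 3.27% of all genes. HOXB8 then had a log2 fold change of -1.96 (SE 0.72, adjusted p = 0.781), which averages knockout lines that lay on opposite sides of the control. HOXB7 averaged 166 CPM over both knockouts and 115 CPM in CT (log2 fold change 0.51, SE 0.19, adjusted p = 0.79). HOXA4 averaged 1.75 CPM over both knockouts and had no count in CT (adjusted p = 0.797). The median log2 fold change of the HOX genes was 0.51, against -0.03 over all genes.

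Levels of these genes across tables can only be set side by side. HOXB8 was under 1 CPM in all ACTB-WT and SETD3 KO2 libraries and at least 1.92 CPM in all libraries of the other 4 groups. HOXA3 averaged 5.02 CPM in ACTB-mut, 0.308 CPM in ACTB-WT and 7.36 CPM in Actin KO, and 1.08 CPM in SETD3 KO2, 1.34 CPM in SETD3 KO1 and 0.818 CPM in SETD3 CT. HOXB4 was under 1 CPM in all ACTB-WT libraries and in SETD3 KO2 replicate 3.

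Genes known to act upstream of the HOX clusters were read from lists. Of 16 retinoic acid pathway genes, 10 were tested in the ACTB table. ALDH1A3, which makes retinoic acid, averaged 79.8 CPM in ACTB-mut, 36.5 CPM in ACTB-WT and 143 CPM in Actin KO. It was lower in ACTB-mut than in Actin KO (log2 fold change -0.84, SE 0.16, adjusted p = 0.0171), lower in ACTB-WT than in Actin KO (-1.97, SE 0.16, adjusted p = 6.9e-06) and higher in ACTB-mut than in ACTB-WT (1.13, SE 0.16, adjusted p = 0.00292). DHRS3, which turns retinaldehyde back to retinol, averaged 155.6 CPM in ACTB-mut, 111 CPM in ACTB-WT and 254 CPM in Actin KO. It fell in both constructs against Actin KO, by 0.71 in ACTB-mut (log2 scale, SE 0.16, adjusted p = 0.0479) and by 1.19 in ACTB-WT (SE 0.16, adjusted p = 0.000894). The ACTB-mut calls of ALDH1A3 and DHRS3 against Actin KO were each lost on leaving out any of the 6 libraries in turn, ACTB-mut replicate 1, 2 or 3 or Actin KO replicate 1, 2 or 3 (adjusted p = 0.0568 to 0.0778 and 0.0675 to 0.192). DESeq2 also called RXRA, a receptor partner, in both constructs against Actin KO.

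**Figure D5:**
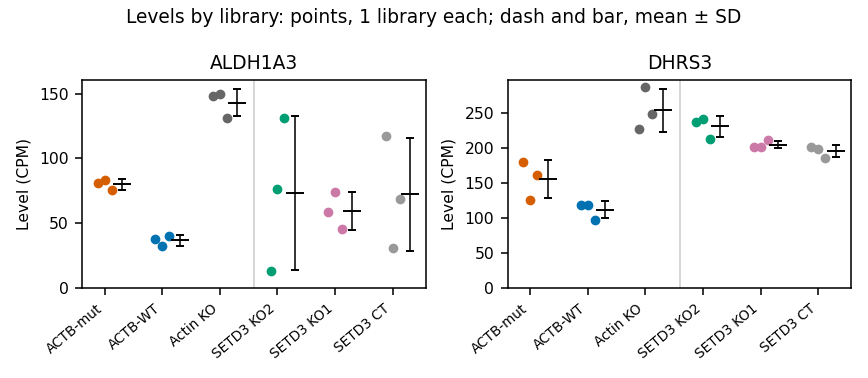
Levels in CPM of ALDH1A3 and DHRS3 in the 6 groups, 1 point per library, with the mean and SD of the group's 3 libraries beside the points. In the ACTB table ACTB-mut lies between ACTB-WT and Actin KO for both genes.

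Chromatin regulators of the HOX clusters gave no call with edgeR in any comparison. Beside the counts below, 11.2% to 12% of all genes had an unadjusted p below 0.05 in comparisons of the ACTB table and 4.84% to 5.75% in those of the SETD3 table, and DESeq2 called 2.58% to 3.21% and 0.404% to 0.657% of all genes in those tables. All 32 Polycomb genes were tested, with 2 to 4 at an unadjusted p below 0.05 in a comparison, and DESeq2 called RING1 in ACTB-mut against Actin KO and PHC2 in SETD3 KO2 against CT. Of 20 MLL and related genes, 17 and 18 were tested in the ACTB and SETD3 tables, 0 to 2 had an unadjusted p below 0.05, and DESeq2 called DOT1L in ACTB-mut against ACTB-WT. CBX6 and PHF19 were the most abundant Polycomb genes, at 328 and 244 CPM over the ACTB libraries. CDX2, an intestinal homeodomain factor, averaged 17.8 CPM in ACTB-mut, 26.8 CPM in ACTB-WT and 23.4 CPM in Actin KO, and 26.6 CPM in SETD3 KO2, 27.5 CPM in SETD3 KO1 and 20.9 CPM in SETD3 CT. Of 25 noncoding transcripts of the clusters, 8 and 9 were tested in those tables; edgeR called 0, with 0 to 3 at an unadjusted p below 0.05, and DESeq2 called HOXA11-AS in ACTB-mut against ACTB-WT. HOXA10-AS was the most abundant, at 66.9 to 102 CPM over the 6 group means, and HOTAIR had no count. Of 25 flanking genes 21 were tested in each table and edgeR called 0, with 1 or 2 at an unadjusted p below 0.05, while DESeq2 called SKAP1, at the HOXB1 end of its cluster, in ACTB-WT against Actin KO and in ACTB-mut against ACTB-WT. CTCF and the other cluster architecture factors, 11 of 13 tested, gave 0 calls with either tool and 0 or 1 at an unadjusted p below 0.05. The ParaHox and EVX list, 2 of 8 tested, gave the same counts.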

How the data were processed

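The deposited values are RSEM expected counts per gene for 18 poly(A) libraries, without normalization. Per the submitters' processing notes, the authors used Trim Galore 0.4.5, cutadapt 1.15, Bowtie2, RSEM 1.2.28 and GRCh38. No source used here gives the gene annotation or how strand was handled. Expected counts were rounded for testing. Each table was fitted alone over its 3 groups with edgeR 4.0.16 in R 4.3.3: filterByExpr, TMM scaling, robust quasi-likelihood F tests, two-sided, Benjamini-Hochberg adjustment over all genes of a comparison, and an adjusted p below 0.05 is a call. Fold changes are log2, with the first-named group on top; SE is the absolute fold change over the square root of F. Levels are TMM-scaled CPM of the unrounded counts. Coordinates and exon lengths come from GENCODE 29. Replicates were not duplicates. The fit was tested on simulated data. Alternatives were median-of-ratios scaling, no count filter, DESeq2 1.42.0, a replicate block, GC and length offsets, and leaving out each library. The members and lists were chosen with earlier results of these data known. Fold changes are given for every called HOX gene and for the 3 uncalled HOX genes of smallest p in a comparison. Other genes come from the lists: called members, or else the 2 with the highest level. MicroRNAs and start windows are from RefSeq tables of GRCh38.p14. Overlapping genes, and those called by DESeq2 alone, were named after their values were seen. Some results are not reported here.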

Additional observations from a re-analysis of the deposited data

Results flagged for a closer look

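HOXB4 was picked out because its level differed between the construct groups set against the same knockout. The test of ACTB-mut against ACTB-WT gave a log2 fold change of 4.09 (adjusted p = 0.00394), with all 3 ACTB-mut libraries above all 3 ACTB-WT libraries. ALDH1A3 differed in the same test, with a log2 fold change of 1.13 (adjusted p = 0.00292), higher in 3 of 3 ACTB-mut libraries. HOXB8 was picked out because every SETD3 KO2 library lay below, and every SETD3 KO1 library above, all SETD3 CT libraries; the test of KO2 against KO1 gave a log2 fold change of -6.65 and missed the threshold (adjusted p = 0.0852). Groups of 3 libraries are too small for a check for single outlying libraries.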

How the results depend on the processing

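The count of 3 HOX genes called in ACTB-WT against Actin KO stayed at 3 under median-of-ratios scaling, without the count filter, with DESeq2 and with GC and length offsets. It was 1, HOXB4, with the replicate block (HOXB8 adjusted p = 0.0644, HOXA3 adjusted p = 0.0971) and 1 to 2 on leaving out a library. The count of 1 in ACTB-mut against ACTB-WT became 2, with HOXA3, without the filter and with DESeq2, and was 1 to 2 on leaving out a library. HOXB8 made the count 1 in SETD3 KO2 against CT without the filter and with DESeq2, and 1 in KO2 against KO1 under those settings and with GC and length offsets; leaving out a library gave 0 in both. The cause of these moves was not tested. The other counts of called HOX genes kept 0 under all settings run, though DESeq2 gave some HOX genes no adjusted p. Expressed members numbered 21 to 28 (ACTB table) and 17 to 25 (SETD3 table) across thresholds and scalings. Over 33 fold changes and 368 alternative values, 327 kept their side of the threshold without a reversed sign, 33 lost the call, 8 gained it and 0 reversed. The 327 include HOXA4 in SETD3 KO2 against CT, whose fold change fell to 0 on leaving out a library. Replicate numbers are shared by groups, and deviations of same-numbered libraries had correlations of -0.0501 to 0.073 (ACTB table) and -0.335 to 0.158 (SETD3 table). Libraries of different numbers had correlations of -0.0707 to 0.0627 and -0.313 to 0.332 in those tables. The numbers were therefore not taken as pairs. Some SETD3 libraries did deviate together across groups, and the main fit does not model this. Most HOX genes lie under 10 CPM, where 1 CPM is worth 3.15 to 12.1 counts.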
